A study of Mus musculus with 11 samples.

Results

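Translation initiation and elongation factors were followed in RNA-seq libraries of group 2 innate lymphoid cells (ILC2s), the tissue-resident lymphocytes that secrete IL-5 and IL-13. The set held every protein-coding autosomal or X-linked gene of the count table whose mouse symbol begins with Eif1 to Eif6, Eef1 or Eef2, 64 of 27179 genes. The 4 Eif2ak kinases, 1 Y-linked gene and 15 entries that are not protein-coding were left out. The rule reads symbols and annotation only, but it was set with earlier results of these data known. ILC2s sorted from the large intestine of WT C57BL/6 mice were kept in culture for 3 h, and every group received IL-2 and IL-7, each at 100 ng/ml. The vehicle group (n = 3) had no further agent, the ADM2 group (n = 3) had 0.4 µg/ml adrenomedullin 2, the IL-25 group (n = 3) had 100 ng/ml IL-25, and the combined group had both at those doses (n = 2, its replicates 2 and 3). ADM2 is a peptide of the calcitonin family that acts through the receptor CALCRL, and IL-25 is an epithelial cytokine that activates ILC2s. The labels give neither the age of the mice nor how many were pooled, and they do not state that each replicate was its own mouse. A p-value therefore reflects only how far these libraries scatter, and that scatter could be technical. Values for single libraries are given below in the order of the replicate numbers.

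Translation begins when the eIF4F complex, made of the cap-binding protein eIF4E, the scaffold eIF4G and the helicase eIF4A, recruits an mRNA to a small ribosomal subunit that carries eIF3, eIF1, eIF1A and the eIF2 ternary complex with initiator tRNA. eIF2B recharges eIF2 with GTP, the eIF4E-binding proteins hold eIF4E away from eIF4G, and eIF5 and eIF5B act as the start codon is found and the subunits join. During elongation eEF1A delivers aminoacyl-tRNA and eEF2 moves the ribosome along, while enzymes such as eEF2 kinase and the eEF1A methyltransferases modify these factors. Lymphocytes that are activated are known to raise protein synthesis, and mTORC1 signalling controls several of these factors at the level of the protein, which an RNA count does not show.

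Upstream bases of 5 members are shown because they stand for the different patterns described further on: Eif4a1 and Eif4g1 of the eIF4F complex, the elongation factor gene Eef2, the eIF3 subunit gene Eif3f and the start codon factor gene Eif1. They come from RefSeq promoter windows of build GRCm38.p6 (250 bases before to 50 after a start), are written 5′ to 3′ on the strand of the gene, and stop before the start and before any annotated exon. Capitals mark the E-box CACGTG, which reads alike on both strands and is known as a binding motif of MYC and related factors.
Eif4a1 promoter, chr11:69672424-69672673, minus strand, E-box at −189: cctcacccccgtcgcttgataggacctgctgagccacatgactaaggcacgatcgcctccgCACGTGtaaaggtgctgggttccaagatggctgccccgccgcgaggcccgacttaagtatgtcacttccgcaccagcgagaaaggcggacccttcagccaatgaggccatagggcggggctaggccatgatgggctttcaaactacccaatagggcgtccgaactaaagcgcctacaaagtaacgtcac
Eif4g1 promoter, chr16:20672477-20672719, plus strand, E-box at −54: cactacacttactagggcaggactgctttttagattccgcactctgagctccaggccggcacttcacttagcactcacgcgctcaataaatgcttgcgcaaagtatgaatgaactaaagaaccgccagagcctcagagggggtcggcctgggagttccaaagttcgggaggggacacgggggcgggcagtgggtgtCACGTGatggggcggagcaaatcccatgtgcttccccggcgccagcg
Eef2 promoter, chr10:81176381-81176630, plus strand, E-box at −43: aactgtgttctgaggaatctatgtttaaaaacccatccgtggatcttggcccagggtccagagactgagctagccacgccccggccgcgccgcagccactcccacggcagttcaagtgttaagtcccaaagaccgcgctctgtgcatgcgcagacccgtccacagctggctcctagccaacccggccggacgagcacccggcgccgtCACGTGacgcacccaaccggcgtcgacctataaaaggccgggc
Eif3f promoter, chr7:108934165-108934414, plus strand, E-box at −68: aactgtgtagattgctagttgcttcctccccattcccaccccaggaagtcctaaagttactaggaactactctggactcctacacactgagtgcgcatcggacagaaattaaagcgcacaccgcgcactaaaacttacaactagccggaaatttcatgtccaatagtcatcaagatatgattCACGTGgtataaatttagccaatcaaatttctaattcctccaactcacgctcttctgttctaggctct
Eif1 promoter, chr11:100319699-100319884, plus strand, no E-box: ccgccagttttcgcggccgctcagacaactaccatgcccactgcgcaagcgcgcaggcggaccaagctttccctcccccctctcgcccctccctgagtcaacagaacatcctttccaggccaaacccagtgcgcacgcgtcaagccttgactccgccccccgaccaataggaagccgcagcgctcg
Positions count from 0 at the start to the motif's leading letter. The whole windows were searched for 3 motifs on both strands in the 48 members with a window, and a gene with several windows counted when any of them matched. CACGTG stood in 13 of 48 members (27.1%), beside 8.09% of all 27025 genes with a window and 11.3% of the 11253 of these that were tested. Among members with a window it was found in 7 of 30 that were higher with IL-25 (23.3%) and in 5 of 13 that were not called there (38.5%). Over all tested genes with a window the order was the other way, 16.5% of 1522 higher and 10.5% of 8496 not called. The cAMP response element TGACGTCA was found in 1 member, Eef2, at 2 after the start, beside 3.47% of tested genes. TGATGNAA, the form of the C/EBP-ATF element searched, was found in Eef2k and Eif2s3x, 2 of 48 members (4.17%), beside 2.76% of tested genes. A match is a description of these letters, and no match says only that they are not in this window.

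Libraries held 25809256 to 35445351 counts, and the members took 2.43% to 3.13% of them. All 13 ILC2 markers checked, among them Gata3, Il7r and Il17rb, were above 1 CPM (counts scaled to library size, here with TMM factors). No marker of another cell type was at 0 in every library. The 7 T cell markers summed to 7.59 to 13.5 CPM over all libraries and the 3 ILC3 markers to 5.67 to 9.33 CPM. Several marker lists moved with the groups. The 13 ILC2 markers, led by Il5, summed to 6572 to 6940 CPM in vehicle, 8446 to 8531 with ADM2, 16250 to 17830 with IL-25 and 24700 to 26890 with both. Single markers of that list did not all follow the sum. Il17rb averaged 216 CPM in vehicle, 344 with ADM2 and 111 with IL-25. Il13 averaged 281, 144 and 2852 CPM in these groups, Il2ra 1890, 1021 and 4698, and Thy1 222, 200 and 229. The 6 epithelial markers summed to 159 to 189 CPM in vehicle, 81.2 to 89.6 with ADM2, 143 to 169.7 with IL-25 and 66.3 to 90.2 with both, most of it Epcam. Other markers of that list were uneven between libraries of a group. Krt8 stood at 17.2 and 1.20 CPM in the combined libraries and at 11.5, 3.48 and 0.926 with IL-25. In the combined libraries Vil1 stood at 2.17 and 0 CPM and Cdh1 at 4.52 and 1.72, while Epcam stood at 62.1 and 62.9. The 5 stromal and endothelial markers, led by Pecam1, summed to 167 to 183 CPM in vehicle, 138 to 165 with ADM2, 334 to 419 with IL-25 and 310.2 to 352 with both. The 6 myeloid markers summed to 5.75 to 6.60 CPM in vehicle, 13.0 to 18.1 with ADM2, 4.87 to 9.28 with IL-25 and 11.7 to 15.1 with both. The 3 mast cell markers, nearly all of it Kit, summed to 410.4 to 495 CPM in vehicle, 539.7 to 655 with ADM2, 485 to 634 with IL-25 and 891 to 937 with both. Cpa3 and Fcer1a of that list averaged only 0.083 and 0.082 CPM over all libraries. The 5 B and plasma cell markers, led by Jchain, summed to 251 to 366 CPM in vehicle, 333 to 409.9 with ADM2, 325 to 483 with IL-25 and 397 to 463 with both, and the 4 NK and ILC1 markers to 6.90 to 9.53 over all libraries. A mean of 1 CPM or more was reached by 1 of 3 mast cell, 2 of 5 B and plasma cell and 2 of 6 myeloid markers. It was reached by 3 of 6 epithelial and all 5 stromal and endothelial markers. The part of such cells in the results below was not tested, and in bulk RNA fewer cells of a type and less RNA per cell cannot be told apart.

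The members spanned more than 3 orders of magnitude in level per exon length, and the elongation factor Eef1a1 stood at the top. In vehicle the mean level of Eef1a1 was 2942 CPM per kilobase of exon and that of Eef2 was 1018. The next were Eif5a at 563, Eif4a1 at 503, Eef1g at 400.1 and Eif1 at 376 CPM per kilobase. Apart from the lower Eif3j1 and Eif3j2, subunits of eIF3 formed a narrow band, with a median of 137 CPM per kilobase over 14 genes. The 5 eIF2B subunit genes were lower, with a median of 26.3, and the 4 genes of eIF4E-binding proteins lay between 18.2 and 25.6 CPM per kilobase. Among the tested members Eif5a2 (1.39), Eef2k (2.10) and Eif3j2 (2.24) were lowest. Of the 64 members 60 passed the filter on low counts. The 4 that did not were the muscle and neuron isoform gene Eef1a2 (10 counts in vehicle replicate 1, 4 in IL-25 plus ADM2 replicate 2 and 0 elsewhere), the methyltransferase gene Eef1akmt3 (8 counts in vehicle replicate 3 and 1 in IL-25 plus ADM2 replicate 2), and Eif4a3l1 and Eif4e1b, which had 0 counts in all 11 libraries.

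**Figure D1:**
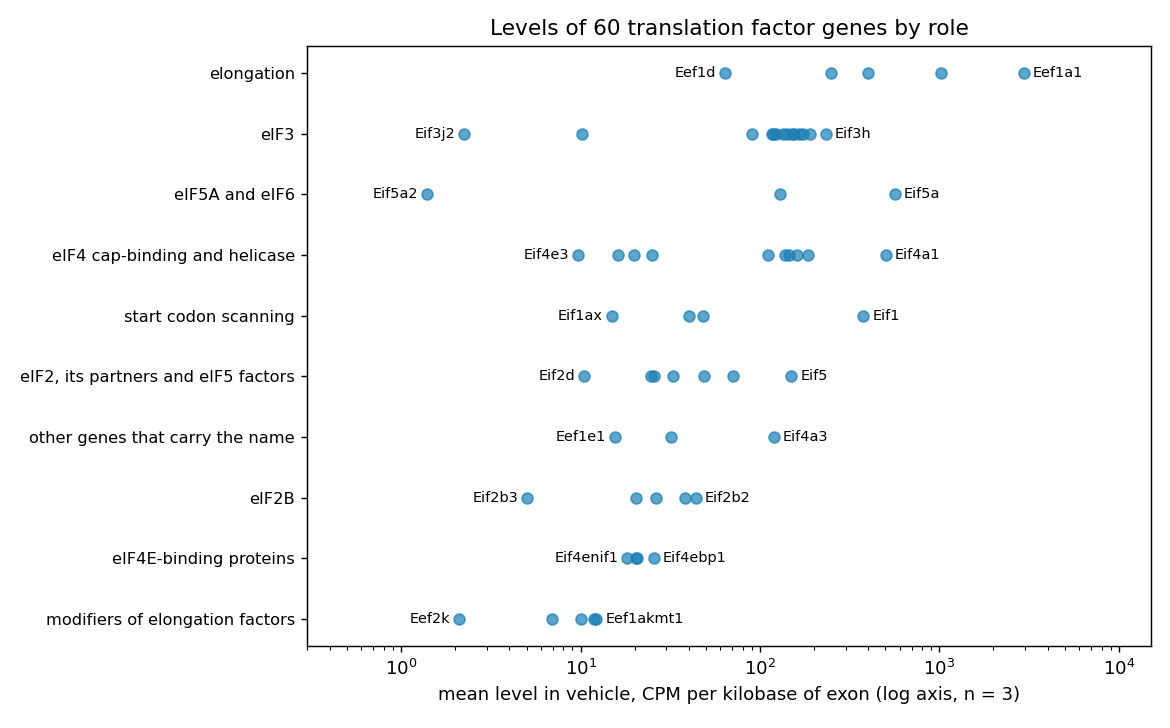
Mean level in the vehicle libraries (n = 3) of the 60 tested members in CPM per kilobase of exon on a log axis, 1 row per role, with the lowest and highest gene of each role named. Eef1a1 at 2942 CPM per kilobase stands at the right end and Eif5a2 at 1.39 at the left.

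IL-25 raised most of the set. Against vehicle 44 of the 60 tested members were called (edgeR quasi-likelihood F test, p adjusted by the method of Benjamini and Hochberg, threshold 0.05), 40 higher and 4 lower, beside 23.3% of all 15028 genes tested (13.0% higher, 10.4% lower). Their median log2 fold change was 0.45, while that of all genes was 0.00046. Members are abundant genes, and among the 4331 genes of at least 50 CPM the share called was 42.1% (30.9% higher), beside 38 of 48 members of that level, 37 higher and 1 lower. The median log2 fold change of those 4331 genes was 0.15. The TMM-scaled levels of the members summed to 23333 ± 1669 CPM in vehicle (SD, n = 3), 24460 ± 559 with ADM2 (n = 3), 32390 ± 1100 with IL-25 (n = 3) and 30071 ± 1870 with both (n = 2). The summed values of the IL-25 libraries, 33118, 31125 and 32927 CPM, did not overlap those of vehicle, 22007, 25207 and 22784 CPM. Part of this rise is scaling, as the TMM factors were 1.09 to 1.12 in vehicle and 0.935 to 0.947 with IL-25. Of the unscaled counts the members took 2.473%, 2.737% and 2.545% in vehicle and 3.125%, 2.949% and 3.078% with IL-25, a smaller rise. That share was 2.536%, 2.428% and 2.474% with ADM2 and 2.681% and 2.838% with both. The sizes were moderate: of the 44 members called, 3 changed by 2-fold or more (Eef1e1, Eif2b3 and Eif4a1).

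With ADM2 alone nearly all members that were called were lower. The count was 12 of 60, 1 higher (Eif1) and 11 lower, beside 14.8% of all genes (7.39% higher, 7.43% lower). The median was −0.062 over the members, −0.0058 over all genes and 0.026 over genes of at least 50 CPM. Among genes of at least 50 CPM 27.8% were called (15.5% higher, 12.3% lower), and 8 of 48 members, 1 higher and 7 lower. Members of that level were thus called less often than such genes, with lower calls near their share and few higher calls. Added to IL-25, ADM2 was called for 17 of 60 members, again Eif1 higher and 16 others lower, beside 14.6% of all genes (6.53% higher, 8.10% lower). The median log2 fold change there was −0.22 for members, −0.012 for all genes and −0.049 for genes of at least 50 CPM. At 50 CPM or more 28.3% of genes (12.1% higher, 16.2% lower) and 15 of 48 members (1 higher, 14 lower) were called. With both agents against vehicle 17 of 60 members were called, 15 higher and 2 lower, beside 20.2% of all genes (10.6% higher, 9.64% lower), with a median of 0.22 for members and −0.022 for all genes. At 50 CPM or more the median of genes was 0.093, and 35.5% of them were called there (23.8% higher, 11.7% lower). Of the 48 members of that level 16 were, 15 higher and 1 lower, which is near that share. The 4 comparisons share vehicle or IL-25 libraries, except that ADM2 versus vehicle and IL-25 plus ADM2 versus IL-25 have no library in common. Of the 11 members lower in the former, 8 (72.7%) were lower in the latter too, which is 50% of its 16. For all genes 734 were lower in both, 65.8% of 1116 and 60.3% of 1218.

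These counts moved with the libraries and the scaling. The IL-25 count was 28 without vehicle replicate 1 and 29 without vehicle replicate 3. For ADM2 alone it was 7 without vehicle replicate 2 and 6 without ADM2 replicate 1 or 2. For ADM2 added to IL-25 it was 11 without IL-25 replicate 3, 6 without replicate 2 and 7 without replicate 3 of the combined group. With both agents against vehicle it was 8 without IL-25 plus ADM2 replicate 3. With library sizes alone and no TMM factors the median of all genes shifted to −0.13 for ADM2, −0.23 for IL-25 and −0.29 for both against vehicle, and the members called were 21 (1 higher, 20 lower), 25 (20 higher, 5 lower) and 17 (6 higher, 11 lower).

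Settings that kept all libraries also ended calls. With library sizes alone 20 of the 44 IL-25 calls were lost, those of Eef1a1, Eef1b2, Eef1d, Eef1g, Eef2, Eif2a, Eif2b1, Eif2b5, Eif3d, Eif3e, Eif3g, Eif3h, Eif3i, Eif3l, Eif3m, Eif4a2, Eif4a3, Eif4e2, Eif4ebp1 and Eif4g1. With both agents against vehicle 9 of 17 were lost in that way, those of Eef1a1, Eef1b2, Eef2, Eif1a, Eif2s1, Eif3a, Eif4a2, Eif4a3 and Eif4e. A fit of only the groups compared ended 8 of the 17 calls of ADM2 on top of IL-25 (Eif2a, Eif2b5, Eif3b, Eif3c, Eif3l, Eif4e, Eif4g1 and Eif5a) and 6 of the IL-25 calls (Eef1b2, Eef2, Eif2b1, Eif3h, Eif4e2 and Eif4ebp1). Upper-quartile scaling ended 5 calls with ADM2 on top of IL-25 (Eif2b5, Eif3c, Eif3l, Eif4e and Eif5a), 5 with IL-25 (Eef1b2, Eif2b1, Eif3h, Eif4e2 and Eif4ebp1) and 2 with ADM2 alone (Eif2a and Eif4g1). Without a filter on low counts the ADM2 calls of Eif4b, Eif4g1 and Eif5a and the IL-25 calls of Eef2 and Eif4e2 were lost, and limma voom did not call Eif4e3 with IL-25.

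**Figure D2:**
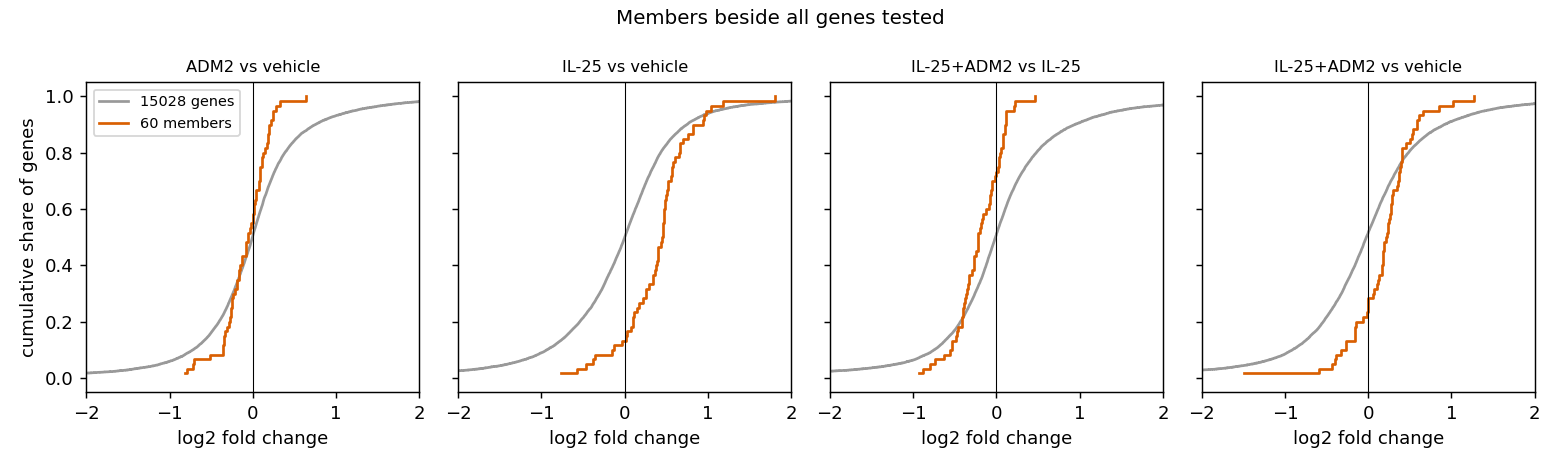
Cumulative share of genes (vertical axis) by log2 fold change (horizontal axis) in the 4 comparisons, for all 15028 tested genes in grey and the 60 tested members in orange. The members lie to the right of all genes with IL-25, where their median is 0.45, and to the left when ADM2 is added to IL-25, where it is −0.22.

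**Figure D3:**
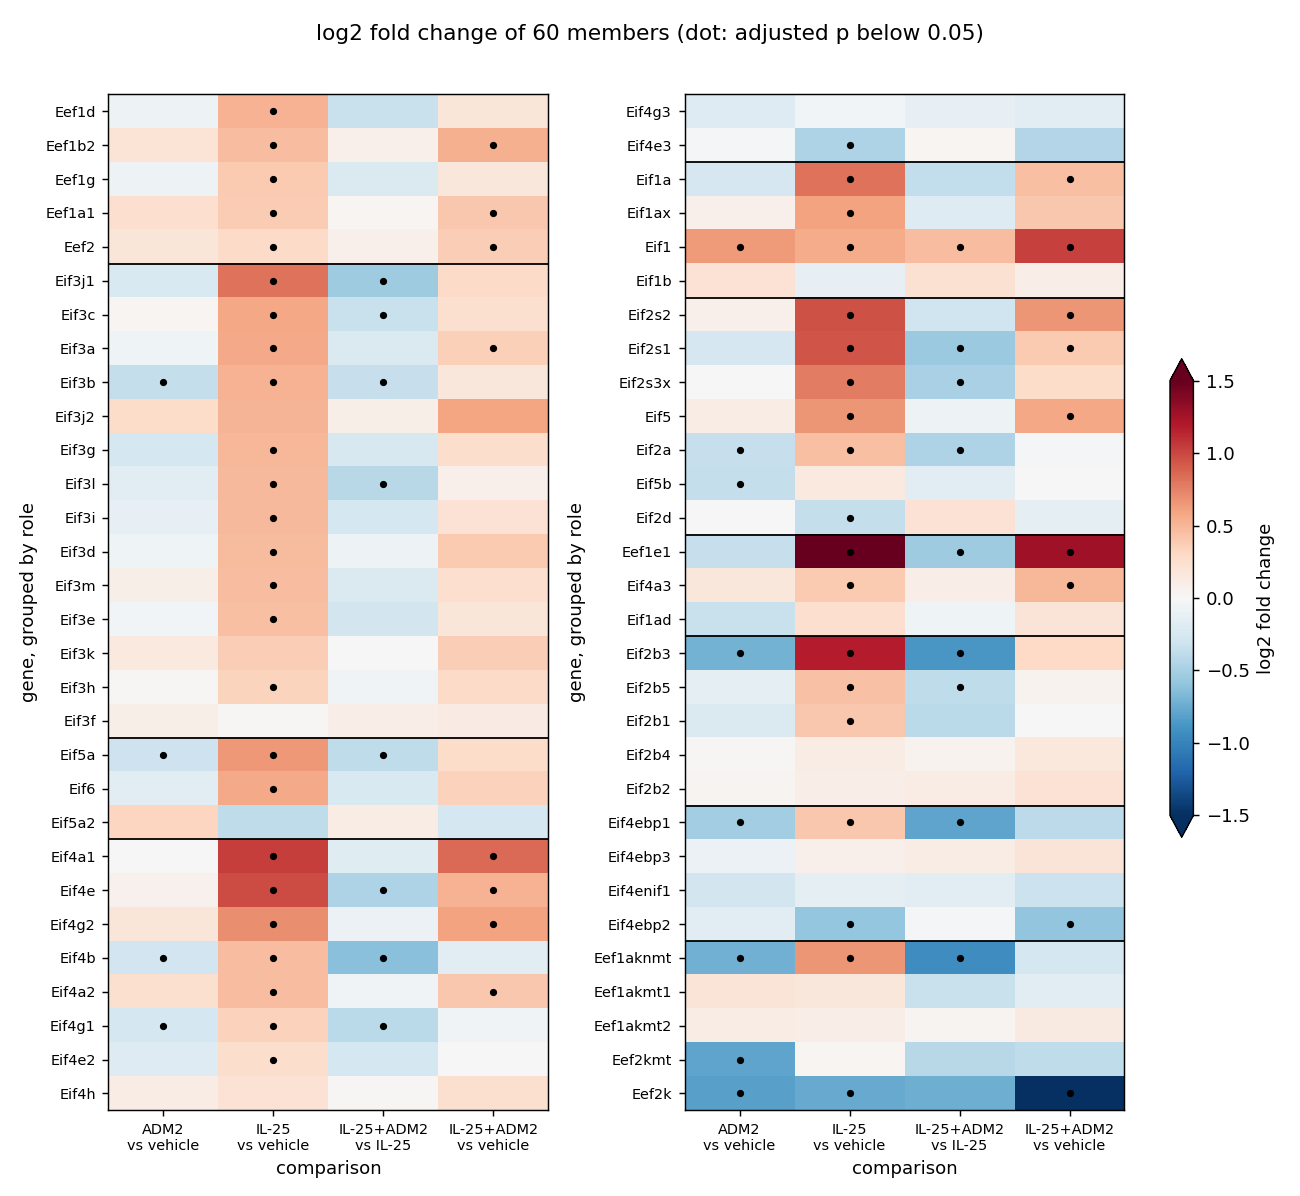
log2 fold change of each of the 60 tested members (rows, split by role with black lines) in the 4 comparisons (columns), from blue (lower) to red (higher), with a dot where the edgeR adjusted p was below 0.05. The IL-25 column is mostly red with 44 dots, and the columns of ADM2 hold 12 and 17 dots, all but those of Eif1 on blue.

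The cap-binding and helicase genes rose with IL-25 in 7 of 10 tested cases and fell in 1. Of all genes 13.0% were higher and 10.4% lower there, and of genes of at least 50 CPM 30.9% and 11.2%. Eif4a1, the main eIF4A helicase (chr11:69666936-69672423), stood at 819, 1012 and 848 CPM in the vehicle libraries, 930.1, 827 and 937 with ADM2, 1881, 1725 and 1884 with IL-25, and 1538 and 1684 with IL-25 plus ADM2. Every IL-25 library, with or without ADM2, was above every library without IL-25. It rose 2.05-fold with IL-25, from 893 ± 104 to 1829.9 ± 91.0 CPM (SD, n = 3 each; log2 fold change 1.03 ± 0.093, SE; edgeR adjusted p = 1.95e-06), and 1.80-fold with both agents (log2 fold change 0.85 ± 0.10, SE; edgeR adjusted p = 2.61e-05). ADM2 alone gave 0.0083 ± 0.092 (edgeR adjusted p = 0.976), a value whose sign turned with the scaling and the libraries used. Eif4e, which encodes the cap-binding protein (chr3:138526191-138559696), stood at 95.1, 110.2 and 101 CPM in the vehicle libraries, 116, 105 and 100.4 with ADM2, 229.9, 175 and 199 with IL-25, and 138 and 155 with IL-25 plus ADM2. IL-25 libraries were highest, the combined libraries lay between, and ADM2 overlapped vehicle. Eif4e rose 1.97-fold with IL-25 (log2 fold change 0.98 ± 0.11, SE; edgeR adjusted p = 1.87e-05) and fell when ADM2 was added to IL-25 (log2 fold change −0.46 ± 0.13, SE; edgeR adjusted p = 0.0235). Against vehicle it was still higher with both agents (log2 fold change 0.52 ± 0.12, SE; edgeR adjusted p = 0.00737). The fall was no longer called if IL-25 replicate 1 or 3 or IL-25 plus ADM2 replicate 2 or 3 was left out (adjusted p up to 0.199). The rise with both agents was lost if IL-25 plus ADM2 replicate 3 was left out (adjusted p up to 0.0990).

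The scaffold genes parted from each other. Eif4g2 (DAP5), a relative of eIF4G that lacks the eIF4E-binding region, stood at 1231, 1328 and 1287 CPM in the vehicle libraries, 1406, 1503 and 1440.2 with ADM2, 2055, 2088 and 2093 with IL-25, and 1968 and 1938 with IL-25 plus ADM2. Both IL-25 groups were above both groups without it, with little spread. Eif4g2 rose with IL-25 (log2 fold change 0.70 ± 0.067, SE; edgeR adjusted p = 3.55e-06) and with both agents (log2 fold change 0.61 ± 0.073, SE; edgeR adjusted p = 2.99e-05). Eif4g1, the main eIF4G scaffold (chr16:20672720-20692883), stood at 908, 829 and 890.0 CPM in the vehicle libraries, 696, 767 and 716 with ADM2, 1003, 1214 and 1109.8 with IL-25, and 872 and 809 with IL-25 plus ADM2. ADM2 libraries were below vehicle, IL-25 libraries above it, and the combined libraries overlapped vehicle. Eif4g1 rose with IL-25 (log2 fold change 0.34 ± 0.086, SE; edgeR adjusted p = 0.00923), fell with ADM2 alone (log2 fold change −0.27 ± 0.086, SE; edgeR adjusted p = 0.0484) and fell with ADM2 on top of IL-25 (log2 fold change −0.40 ± 0.10, SE; edgeR adjusted p = 0.0114). The call for ADM2 alone was lost if any of 8 of the 11 libraries (every one except vehicle replicate 2 and IL-25 replicate 1 and 2) was left out (adjusted p up to 0.156). The call on top of IL-25 was lost if IL-25 plus ADM2 replicate 3 was left out (adjusted p up to 0.139). The IL-25 call was lost if vehicle replicate 2 was left out (adjusted p up to 0.0518). Eif4g3, the other full-length scaffold, was not called in any comparison, and its IL-25 value was −0.037 ± 0.15.

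Eif4b, whose product stimulates the eIF4A helicase (chr15:102073773-102097173), stood at 453, 462 and 447 CPM in the vehicle libraries, 387, 385 and 347 with ADM2, 660.4, 589.6 and 633 with IL-25, and 407 and 408 with IL-25 plus ADM2. ADM2 libraries and combined libraries lay below all vehicle libraries, and IL-25 libraries above them. Eif4b rose with IL-25 (log2 fold change 0.47 ± 0.081, SE; edgeR adjusted p = 0.000611) and fell when ADM2 was added (log2 fold change −0.62 ± 0.092, SE; edgeR adjusted p = 0.000293) and with ADM2 alone (log2 fold change −0.28 ± 0.081, SE; edgeR adjusted p = 0.0264). The last of these calls was lost if ADM2 replicate 3 was left out (adjusted p up to 0.0850). Eif4e3, an eIF4E relative with atypical cap binding, went the other way from Eif4e with IL-25, with 25.8, 27.8 and 19.3 CPM in vehicle and 16.5, 17.3 and 18.8 with IL-25. The groups did not overlap, and it fell 1.38-fold (log2 fold change −0.47 ± 0.16, SE; edgeR adjusted p = 0.0434). This call was lost if any of 7 of the 11 libraries (every one except vehicle replicate 3, ADM2 replicate 3 and IL-25 plus ADM2 replicate 2 and 3) was left out (adjusted p up to 0.122). Eif4a2 rose with IL-25 (log2 fold change 0.46 ± 0.10, SE; edgeR adjusted p = 0.00247) and with both agents (log2 fold change 0.41 ± 0.11, SE; edgeR adjusted p = 0.0123). The second of these was lost if vehicle replicate 1 or IL-25 plus ADM2 replicate 3 was left out (adjusted p up to 0.153). Eif4e2 was called higher with IL-25 by a small margin (log2 fold change 0.26 ± 0.088, SE; edgeR adjusted p = 0.0427). Its call was lost if any of 10 of the 11 libraries (every one except IL-25 replicate 1) was left out (adjusted p up to 0.264). Eif4h, which also stimulates eIF4A, was not called in any comparison.

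The share of each paralog in the summed level per kilobase of its set also differed between groups. Eif4a1 made up 66.2 ± 1.10% of the eIF4A set in vehicle, 63.0 ± 1.40% with ADM2, 74.9 ± 0.707% with IL-25 and 72.1 ± 0.308% with both (SD, n = 3, 3, 3 and 2). Eif4e made up 43.6 ± 2.69% of the eIF4E set in vehicle, 46.9 ± 3.27% with ADM2, 59.7 ± 4.12% with IL-25 and 55.1 ± 3.24% with both. In that set Eif4e3 went from 21.0 ± 2.54% in vehicle to 10.7 ± 1.12% with IL-25. Among the scaffolds Eif4g1 held 43.9 ± 1.29% in vehicle, 37.2 ± 0.236% with ADM2, 39.2 ± 1.85% with IL-25 and 34.3 ± 0.725% with both, and Eif4g2 held 48.6 ± 2.68%, 56.1 ± 0.719%, 55.6 ± 2.24% and 60.2 ± 1.27%. In every group given ADM2, IL-25 or both the share of Eif4g2 in each library was above its share in each vehicle library. Elsewhere a single paralog dominated throughout: Eif5a held at least 99.56% of the eIF5A set in every library, and Eef1a1 at least 99.99% of the eEF1A set. These shares are descriptions and were not tested.

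**Figure D4:**
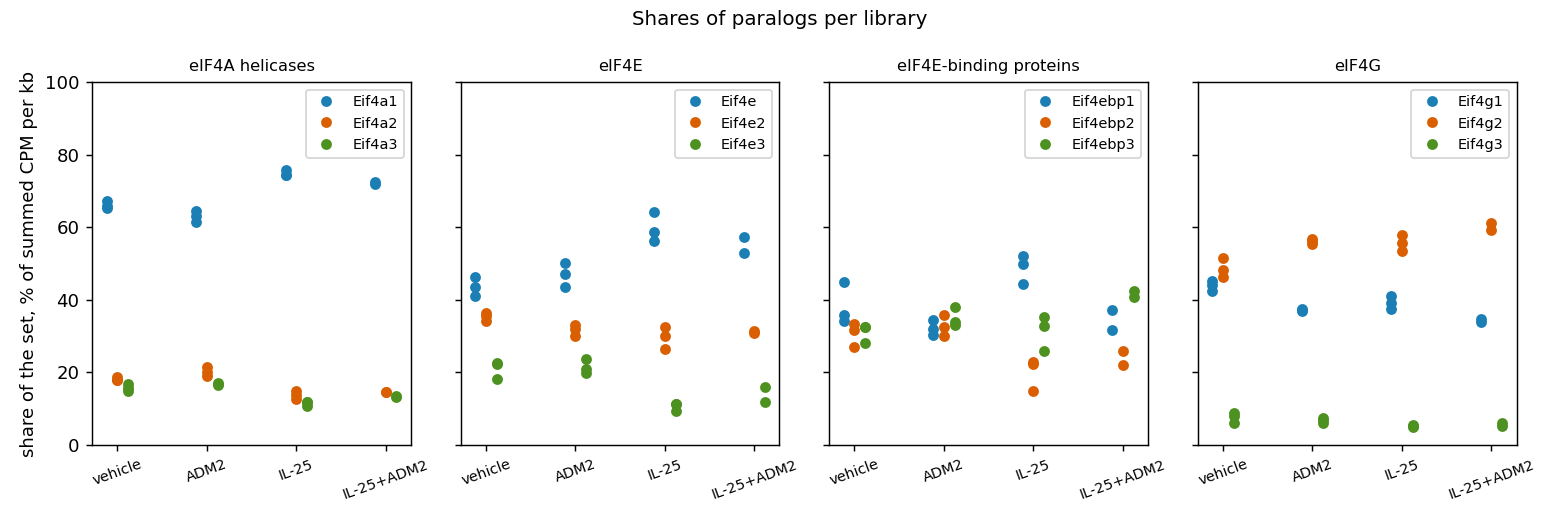
Share of each paralog in the summed CPM per kilobase of its set (percent, vertical axis) in every library (points) of the 4 groups, for the eIF4A, eIF4E, eIF4E-binding and eIF4G genes. Eif4a1 and Eif4e have higher shares in the IL-25 groups, with means of 74.9% and 59.7% with IL-25 beside 66.2% and 43.6% in vehicle.

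The genes of the eIF4E-binding proteins, which restrain eIF4E, did not move together. Eif4ebp1 (chr8:27260327-27275656), the mTORC1 target 4E-BP1, stood at 46.8, 61.2 and 45.3 CPM in the vehicle libraries, 34.5, 34.5 and 38.1 with ADM2, 76.4, 59.2 and 67.2 with IL-25, and 35.9 and 42.0 with IL-25 plus ADM2. Each ADM2 library was below each vehicle library and each combined library below each IL-25 library, while vehicle replicate 2 exceeded the lowest IL-25 library. It fell 1.43-fold with ADM2 alone (log2 fold change −0.52 ± 0.14, SE; edgeR adjusted p = 0.0168) and 1.73-fold with ADM2 on top of IL-25 (log2 fold change −0.79 ± 0.15, SE; edgeR adjusted p = 0.00247). IL-25 raised it (log2 fold change 0.40 ± 0.13, SE; edgeR adjusted p = 0.0420). The call for ADM2 alone was lost if vehicle replicate 2 or ADM2 replicate 1 or 2 was left out (adjusted p up to 0.0622). The IL-25 call was lost if any of 7 of the 11 libraries (every one except vehicle replicate 2, IL-25 replicate 2 and IL-25 plus ADM2 replicate 2 and 3) was left out (adjusted p up to 0.228). Eif4ebp2 (chr10:61428491-61452790), its close relative, stood at 132, 106 and 116 CPM in the vehicle libraries, 93.6, 118 and 105 with ADM2, 65.6, 88.3 and 83.2 with IL-25, and 84.4 and 72.0 with IL-25 plus ADM2. All IL-25 libraries were below all vehicle libraries, with or without ADM2. It fell 1.49-fold with IL-25 (log2 fold change −0.58 ± 0.13, SE; edgeR adjusted p = 0.00482) and 1.51-fold with both agents (log2 fold change −0.59 ± 0.15, SE; edgeR adjusted p = 0.0106). The latter call was lost if IL-25 plus ADM2 replicate 3 was left out (adjusted p up to 0.134). Eif4ebp3 and Eif4enif1, the gene of an eIF4E transporter, were not called, with IL-25 values of 0.078 ± 0.17 and −0.15 ± 0.10. Within the binding-protein set Eif4ebp1 made up 38.4 ± 5.83% in vehicle, 32.2 ± 2.08% with ADM2, 48.8 ± 3.92% with IL-25 and 34.5 ± 3.80% with both, and Eif4ebp2 went from 30.6 ± 3.37% in vehicle to 19.97 ± 4.47% with IL-25.

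All 3 subunit genes of eIF2 rose with IL-25 by similar amounts, beside 13.0% of all genes higher and 30.9% of genes of at least 50 CPM. Eif2s1, which encodes the alpha subunit that stress kinases phosphorylate (chr12:78862072-78887010), stood at 151, 184 and 165 CPM in the vehicle libraries, 143, 145 and 134 with ADM2, 375, 277 and 309 with IL-25, and 208 and 228 with IL-25 plus ADM2. IL-25 libraries were highest, combined libraries between them and vehicle, and ADM2 libraries lowest. Eif2s1 rose 1.92-fold with IL-25 (log2 fold change 0.94 ± 0.11, SE; edgeR adjusted p = 3.05e-05), fell when ADM2 was added (log2 fold change −0.55 ± 0.13, SE; edgeR adjusted p = 0.00868) and was higher with both agents than in vehicle (log2 fold change 0.39 ± 0.13, SE; edgeR adjusted p = 0.0414). The fall was lost if IL-25 plus ADM2 replicate 2 was left out (adjusted p up to 0.0952). The comparison of both agents with vehicle lost its call if any of 8 of the 11 libraries (every one except vehicle replicate 2 and IL-25 replicate 1 and 2) was left out (adjusted p up to 0.261). Eif2s2, the beta subunit gene (chr2:154871410-154892906), stood at 163, 191 and 184 CPM in the vehicle libraries, 191, 196 and 181 with ADM2, 376, 309.5 and 354 with IL-25, and 261 and 305 with IL-25 plus ADM2. Both IL-25 groups were clear of both others. Eif2s2 rose with IL-25 (log2 fold change 0.95 ± 0.10, SE; edgeR adjusted p = 1.02e-05) and with both agents (log2 fold change 0.66 ± 0.11, SE; edgeR adjusted p = 0.000687). Eif2s3x, the X-linked gamma subunit gene, stood at 89.0, 84.3 and 101 CPM in the vehicle libraries, 82.4, 108 and 84.9 with ADM2, 163, 153 and 150.4 with IL-25, and 112 and 109.8 with IL-25 plus ADM2. Vehicle and ADM2 overlapped, and the combined libraries lay between these and IL-25. Eif2s3x rose with IL-25 (log2 fold change 0.76 ± 0.11, SE; edgeR adjusted p = 0.000179) and fell when ADM2 was added (log2 fold change −0.48 ± 0.13, SE; edgeR adjusted p = 0.0184). That fall was lost if IL-25 plus ADM2 replicate 2 or 3 was left out (adjusted p up to 0.119).

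Genes of factors that work beside eIF2 were split between higher, lower and not called. Eif5, which encodes the GTPase-activating protein of eIF2 (chr12:111538101-111546753), stood at 606, 662 and 621 CPM in the vehicle libraries, 664, 698 and 683 with ADM2, 1019, 998 and 972 with IL-25, and 945 and 939 with IL-25 plus ADM2. The IL-25 groups were well above the others. Eif5 rose with IL-25 (log2 fold change 0.66 ± 0.073, SE; edgeR adjusted p = 1.20e-05) and with both agents (log2 fold change 0.58 ± 0.080, SE; edgeR adjusted p = 0.000105), and ADM2 on top of IL-25 gave −0.081 ± 0.081 (edgeR adjusted p = 0.593). Eif2a, the gene of an alternative initiator tRNA factor that is not a subunit of eIF2, stood at 70.0, 80.0 and 75.3 CPM in the vehicle libraries, 62.8, 60.4 and 53.6 with ADM2, 116, 94.4 and 99.1 with IL-25, and 76.5 and 72.5 with IL-25 plus ADM2. ADM2 libraries were lowest, IL-25 libraries highest, and combined libraries overlapped vehicle. Eif2a rose with IL-25 (log2 fold change 0.46 ± 0.11, SE; edgeR adjusted p = 0.00557) and fell with ADM2 both alone (log2 fold change −0.35 ± 0.11, SE; edgeR adjusted p = 0.0387) and on top of IL-25 (log2 fold change −0.47 ± 0.12, SE; edgeR adjusted p = 0.0158). The call for ADM2 alone was lost if any of 6 of the 11 libraries (every one except vehicle replicate 1, IL-25 replicate 1 and 2 and IL-25 plus ADM2 replicate 2 and 3) was left out (adjusted p up to 0.120). The call on top of IL-25 was lost if IL-25 plus ADM2 replicate 2 or 3 was left out (adjusted p up to 0.130). The IL-25 call was lost if vehicle replicate 1 was left out (adjusted p up to 0.0523). Reads of Eif2a can overlap its neighbour Serp1.

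Eif5b, the GTPase gene of subunit joining, stood at 197, 223 and 177 CPM in vehicle and 153, 145 and 168 with ADM2, and these groups did not overlap. It fell with ADM2 alone (log2 fold change −0.35 ± 0.10, SE; edgeR adjusted p = 0.0302) and was not called with IL-25 (0.15 ± 0.10, edgeR adjusted p = 0.351). The ADM2 call was lost if vehicle replicate 2 or ADM2 replicate 1 or 2 was left out (adjusted p up to 0.116). Eif2d, a factor of reinitiation and ribosome recycling, stood at 40.3, 46.1 and 43.3 CPM in vehicle and 36.6, 33.1 and 31.6 with IL-25. Each IL-25 library was below each vehicle library. It fell with IL-25 (log2 fold change −0.36 ± 0.11, SE; edgeR adjusted p = 0.0260). This call was lost if vehicle replicate 2 or 3 or IL-25 replicate 2 or 3 was left out (adjusted p up to 0.102). Eif2d overlaps Rassf5 and Eif5b overlaps Rev1 in the annotation.

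Among the 5 subunits of eIF2B, the exchange factor of eIF2, Eif2b3 stood apart in the size of its change. Eif2b3, the gamma subunit gene (chr4:117019399-117086852), stood at 19.1, 23.1 and 18.6 CPM in the vehicle libraries, 15.2, 11.6 and 10.6 with ADM2, 46.8, 40.4 and 50.5 with IL-25, and 24.0 and 25.9 with IL-25 plus ADM2. ADM2 libraries lay below all vehicle libraries, IL-25 libraries well above everything else, and combined libraries just above vehicle. It rose 2.26-fold with IL-25, from 20.3 ± 2.44 to 45.9 ± 5.11 CPM (log2 fold change 1.18 ± 0.15, SE; edgeR adjusted p = 5.00e-05). With ADM2 it fell 1.63-fold alone (log2 fold change −0.70 ± 0.15, SE; edgeR adjusted p = 0.00509) and 1.84-fold on top of IL-25 (log2 fold change −0.88 ± 0.17, SE; edgeR adjusted p = 0.00261). All 3 calls held whichever library was left out. Eif2b5, the catalytic subunit gene, rose with IL-25 (log2 fold change 0.44 ± 0.10, SE; edgeR adjusted p = 0.00502) and fell when ADM2 was added (log2 fold change −0.39 ± 0.11, SE; edgeR adjusted p = 0.0329). Its fall was lost if any of 6 of the 11 libraries (every one except vehicle replicate 2, ADM2 replicate 1 and 2, IL-25 replicate 2 and IL-25 plus ADM2 replicate 3) was left out (adjusted p up to 0.315). Eif2b1 rose with IL-25 (log2 fold change 0.40 ± 0.13, SE; edgeR adjusted p = 0.0376). Its call was lost if vehicle replicate 1 or 3, ADM2 replicate 3 or IL-25 replicate 1 or 3 was left out (adjusted p up to 0.228). Eif2b2 and Eif2b4 were not called, with IL-25 values of 0.10 ± 0.12 and 0.11 ± 0.12. Over the 5 subunits the IL-25 values ran from 0.099 to 1.18.

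**Figure D5:**
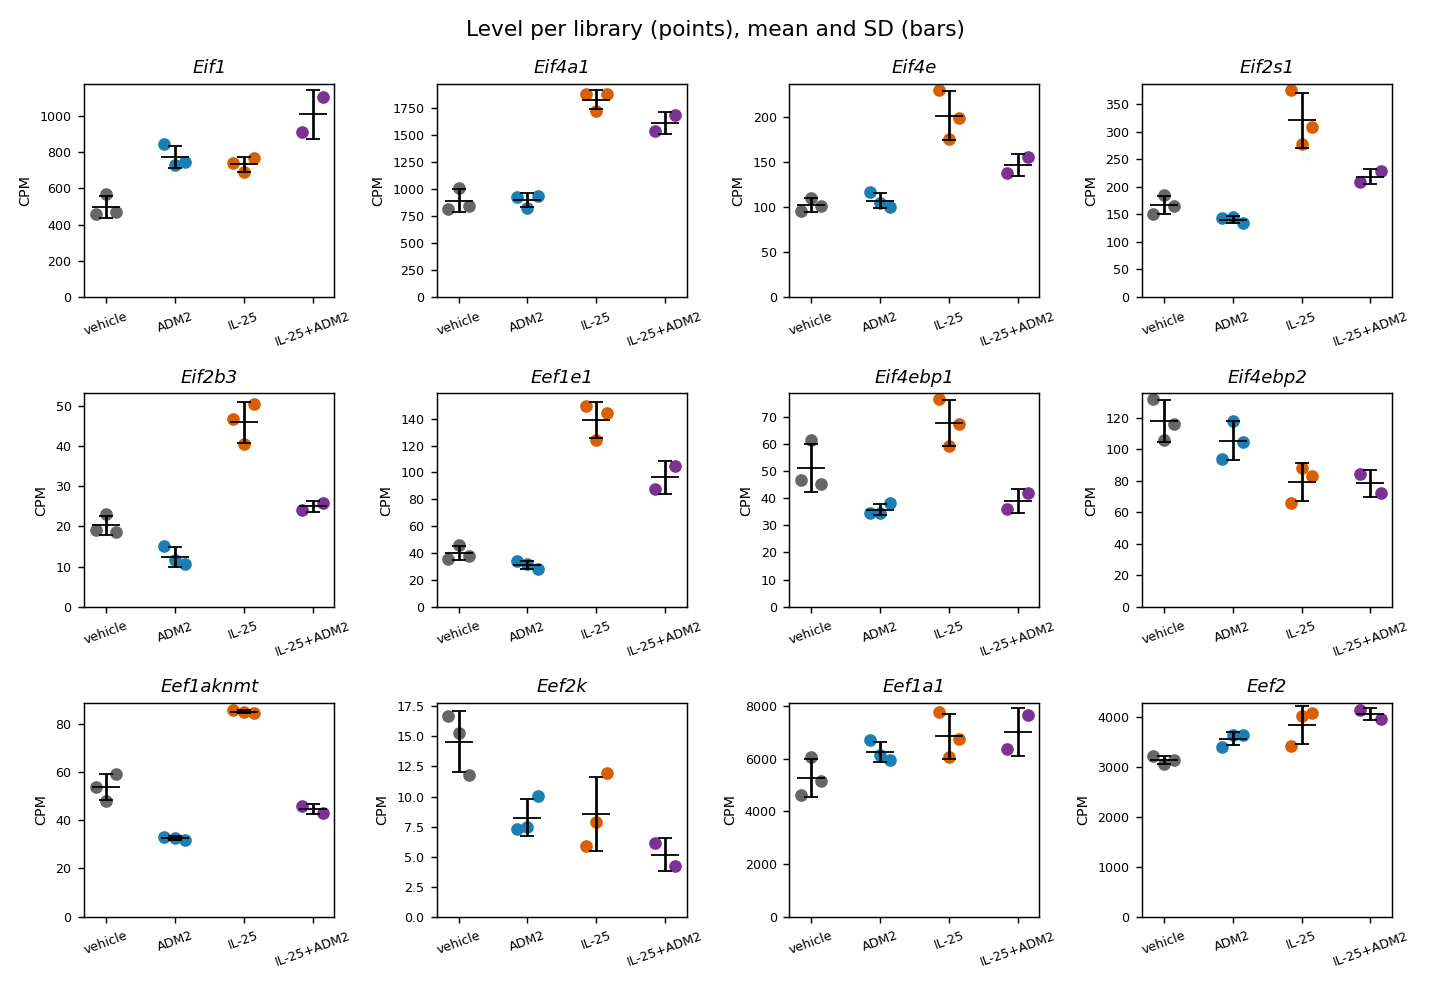
Level in CPM (vertical axes from 0) of 12 members in every library (points), with the mean (wide bar) and SD (narrow bars) of each group. Eif2b3, Eef1aknmt and Eif4ebp1 are lower in each ADM2 library than in each vehicle library, Eif1 is higher, and Eef1e1 goes from a mean of 39.8 CPM in vehicle to 139 with IL-25.

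Subunit genes of eIF3, the scaffold on the small ribosomal subunit, rose broadly with IL-25, 11 of 14 without any lower. Of all genes 13.0% were higher there, and of genes of at least 50 CPM 30.9%. The log2 fold changes of the eIF3 genes ran from 0.017 (Eif3f) to 0.82 (Eif3j1) with a median of 0.49. Eif3j1, the gene of a loosely held subunit (chr2:122028580-122053632), stood at 47.4, 60.5 and 57.2 CPM in the vehicle libraries, 46.1, 46.2 and 48.2 with ADM2, 102, 91.6 and 98.1 with IL-25, and 67.3 and 67.2 with IL-25 plus ADM2. IL-25 libraries were clear of vehicle, and combined libraries lay between. Eif3j1 rose with IL-25 (log2 fold change 0.82 ± 0.10, SE; edgeR adjusted p = 4.54e-05) and fell when ADM2 was added (log2 fold change −0.53 ± 0.12, SE; edgeR adjusted p = 0.00623). The fall was lost if IL-25 plus ADM2 replicate 2 or 3 was left out (adjusted p up to 0.0547). Its near-copy Eif3j2, at 5.34 ± 0.974 CPM in vehicle, was not called, and reads of the pair can be split between them. Eif3b, a core subunit gene, stood at 555, 569.8 and 543 CPM in the vehicle libraries, 435, 419 and 448 with ADM2, 715, 831 and 842 with IL-25, and 625 and 624 with IL-25 plus ADM2. All 4 groups were apart from each other. Eif3b rose with IL-25 (log2 fold change 0.52 ± 0.082, SE; edgeR adjusted p = 0.000305) and fell with ADM2 both alone (log2 fold change −0.36 ± 0.082, SE; edgeR adjusted p = 0.00718) and on top of IL-25 (log2 fold change −0.35 ± 0.092, SE; edgeR adjusted p = 0.0183). The last call was lost if IL-25 replicate 2 or 3 or IL-25 plus ADM2 replicate 2 or 3 was left out (adjusted p up to 0.123).

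Eif3c, another core subunit gene, stood at 486, 524 and 517 CPM in the vehicle libraries, 513, 537 and 512 with ADM2, 815, 715 and 746 with IL-25, and 588 and 616 with IL-25 plus ADM2. ADM2 overlapped vehicle, and the combined libraries lay between vehicle and IL-25. Eif3c rose with IL-25 (log2 fold change 0.58 ± 0.079, SE; edgeR adjusted p = 9.25e-05) and fell when ADM2 was added (log2 fold change −0.33 ± 0.089, SE; edgeR adjusted p = 0.0199). The fall was lost if vehicle replicate 3, ADM2 replicate 3 or IL-25 plus ADM2 replicate 2 or 3 was left out (adjusted p up to 0.166). Eif3l also fell there (log2 fold change −0.42 ± 0.11, SE; edgeR adjusted p = 0.0215). Its call was lost if IL-25 replicate 1 or 3 or IL-25 plus ADM2 replicate 2 or 3 was left out (adjusted p up to 0.185). Eif3a, another core subunit gene, was the only eIF3 gene called with both agents against vehicle (log2 fold change 0.36 ± 0.092, SE; edgeR adjusted p = 0.0126). That call was lost if vehicle replicate 3 or IL-25 plus ADM2 replicate 2 or 3 was left out (adjusted p up to 0.0868). Eif3f, the gene of a further eIF3 subunit, stood at 376, 409 and 376 CPM in the vehicle libraries, 433, 394 and 408 with ADM2, 358, 407 and 409 with IL-25, and 407 and 435 with IL-25 plus ADM2. All groups overlapped, and no comparison called it. Eif3k and Eif3j2 were not called with IL-25 either. Of the 11 IL-25 calls, 5 held whichever library was left out. Without vehicle replicate 1 or 3 the calls of Eif3d, Eif3e, Eif3g, Eif3h, Eif3i and Eif3m were lost, with adjusted p of up to 0.212. Those of Eif3d and Eif3h were lost without IL-25 replicate 3 too, and that of Eif3h also without IL-25 replicate 1 or ADM2 replicate 3.

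Eif1 was the only member called higher with ADM2, and it rose in all 4 comparisons. It encodes the factor that keeps the scanning ribosome from stopping at wrong codons (chr11:100319949-100322099), and stood at 456, 568 and 468 CPM in the vehicle libraries, 843, 732 and 746 with ADM2, 739, 689.8 and 769.9 with IL-25, and 914 and 1104 with IL-25 plus ADM2. Vehicle libraries were lowest, ADM2 and IL-25 libraries overlapped each other, and the combined libraries were highest. The rise was 1.56-fold with ADM2 (log2 fold change 0.64 ± 0.10, SE; edgeR adjusted p = 0.000571) and 1.47-fold with IL-25 (log2 fold change 0.56 ± 0.10, SE; edgeR adjusted p = 0.00111). ADM2 on top of IL-25 added 1.38-fold (log2 fold change 0.46 ± 0.12, SE; edgeR adjusted p = 0.0134), and both agents together gave 2.03-fold (log2 fold change 1.02 ± 0.11, SE; edgeR adjusted p = 1.54e-05). The added rise was lost if IL-25 plus ADM2 replicate 3 was left out (adjusted p up to 0.213). The ADM2 effect did not differ detectably between the backgrounds (difference −0.18 ± 0.16, edgeR adjusted p = 0.881). Eif1b, its paralog, was not called in any comparison, with 0.22 ± 0.16 for ADM2 and −0.12 ± 0.16 for IL-25. Eif1 made up 88.8 ± 0.608% of the summed level of the pair per kilobase in vehicle and 93.7 ± 0.478% with both agents.

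The eIF1A genes, whose products act with eIF1, rose with IL-25 and were not called with ADM2. Eif1a rose 1.76-fold with IL-25 (log2 fold change 0.82 ± 0.11, SE; edgeR adjusted p = 5.04e-05) and was higher with both agents (log2 fold change 0.45 ± 0.12, SE; edgeR adjusted p = 0.0120). The latter call was lost if vehicle replicate 1 or IL-25 plus ADM2 replicate 3 was left out (adjusted p up to 0.147). Eif1ax, its X-linked counterpart, rose with IL-25 (log2 fold change 0.60 ± 0.13, SE; edgeR adjusted p = 0.00366).

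Eif5a, the only gene besides Eif5a2 whose product carries the amino acid hypusine, was among the most abundant members and moved in 3 comparisons. Its levels (chr11:69916712-69921958) were 1227, 1523 and 1265 CPM in the vehicle libraries, 1154, 979 and 1105 with ADM2, 1998, 2055 and 2266 with IL-25, and 1496 and 1735 with IL-25 plus ADM2. ADM2 libraries were below all vehicle libraries, and IL-25 libraries above all others. It rose 1.57-fold with IL-25 (log2 fold change 0.65 ± 0.10, SE; edgeR adjusted p = 0.000216) and fell with ADM2 alone (log2 fold change −0.31 ± 0.10, SE; edgeR adjusted p = 0.0485) and on top of IL-25 (log2 fold change −0.38 ± 0.11, SE; edgeR adjusted p = 0.0321). The call for ADM2 alone was lost if any of 8 of the 11 libraries (every one except vehicle replicate 1 and 3 and IL-25 replicate 1) was left out (adjusted p up to 0.186). The call on top of IL-25 was lost if any of 6 of the 11 libraries (every one except vehicle replicate 1 and 2, ADM2 replicate 1 and 2 and IL-25 replicate 1) was left out (adjusted p up to 0.291). Eif6, which keeps the large ribosomal subunit from joining too early, stood at 285, 373 and 298 CPM in the vehicle libraries, 308, 259.9 and 292 with ADM2, 467, 456 and 495 with IL-25, and 370.2 and 439 with IL-25 plus ADM2. IL-25 libraries were clear of vehicle, and combined libraries overlapped it. Eif6 rose with IL-25 (log2 fold change 0.57 ± 0.11, SE; edgeR adjusted p = 0.00172) and was not called in the ADM2 comparisons (−0.15 ± 0.11 alone and −0.22 ± 0.13 on top of IL-25). Eif5a2, the rare paralog, was not called in any comparison.

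All 5 tested elongation factor genes rose with IL-25, by small amounts, and none was called with ADM2. Of all genes 13.0% were higher with IL-25, and of genes of at least 50 CPM 30.9%. None of these 5 IL-25 calls held whichever library was left out. Eef1a1, which delivers aminoacyl-tRNA (chr9:78478453-78481724), stood at 4627, 6046 and 5159.8 CPM in the vehicle libraries, 6689.9, 6147 and 5952 with ADM2, 7761, 6073 and 6733 with IL-25, and 6358 and 7662 with IL-25 plus ADM2. IL-25 values were above vehicle with libraries close to touching. It rose 1.30-fold with IL-25 (log2 fold change 0.38 ± 0.11, SE; edgeR adjusted p = 0.0180) and 1.33-fold with both agents (log2 fold change 0.41 ± 0.12, SE; edgeR adjusted p = 0.0231). The IL-25 call was lost if vehicle replicate 1 or 3 or IL-25 replicate 1 was left out (adjusted p up to 0.145). That of both agents was lost if vehicle replicate 1 or 3 or IL-25 plus ADM2 replicate 3 was left out (adjusted p up to 0.304). Eef2, the translocase gene (chr10:81176631-81182509), stood at 3225, 3059 and 3146 CPM in the vehicle libraries, 3409, 3647 and 3639 with ADM2, 3411, 4025 and 4089 with IL-25, and 4143 and 3966 with IL-25 plus ADM2. Vehicle libraries were lowest, and the IL-25 group overlapped both other treated groups. Eef2 rose with IL-25 (log2 fold change 0.29 ± 0.074, SE; edgeR adjusted p = 0.0103) and with both agents (log2 fold change 0.37 ± 0.082, SE; edgeR adjusted p = 0.00516). The former call was lost if vehicle replicate 2 or 3 or IL-25 replicate 3 was left out (adjusted p up to 0.0624). The latter was lost if IL-25 plus ADM2 replicate 2 was left out (adjusted p up to 0.0661).

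The exchange factor genes of eEF1A also rose with IL-25: Eef1b2 (0.46 ± 0.14; edgeR adjusted p = 0.0296), Eef1d (0.52 ± 0.14; edgeR adjusted p = 0.0145) and Eef1g (0.39 ± 0.10; edgeR adjusted p = 0.00833). Eef1b2 was also higher with both agents (log2 fold change 0.53 ± 0.16, SE; edgeR adjusted p = 0.0260). All 3 IL-25 calls were lost without vehicle replicate 1 or 3, with adjusted p of up to 0.193, 0.0996 and 0.0745. Those of Eef1b2 and Eef1d were also lost without IL-25 replicate 1, and that of Eef1b2 without IL-25 replicate 3 or ADM2 replicate 3. The call of Eef1b2 with both agents was lost if vehicle replicate 1 or 3 or IL-25 plus ADM2 replicate 3 was left out (adjusted p up to 0.278). With library sizes alone none of the 5 elongation factor genes was called with IL-25.

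Genes of enzymes that modify the elongation factors were called in 3 of 5 tested cases with ADM2, all lower, beside 7.43% of all genes lower. With IL-25 1 was higher (Eef1aknmt) and 1 lower (Eef2k), beside 13.0% of all genes higher and 10.4% lower. Eef2k encodes the kinase that phosphorylates eEF2 and slows elongation (chr7:120842642-120907219), and stood at 16.7, 15.3 and 11.8 CPM in the vehicle libraries, 7.29, 7.43 and 10.0 with ADM2, 5.91, 7.88 and 11.95 with IL-25, and 6.14 and 4.198 with IL-25 plus ADM2. ADM2 libraries and combined libraries were below all vehicle libraries, and IL-25 replicate 3 reached into the vehicle range. It fell 1.76-fold with ADM2 (log2 fold change −0.82 ± 0.26, SE; edgeR adjusted p = 0.0484), 1.69-fold with IL-25 (log2 fold change −0.76 ± 0.26, SE; edgeR adjusted p = 0.0485) and 2.82-fold with both agents (log2 fold change −1.49 ± 0.31, SE; edgeR adjusted p = 0.00299). The ADM2 call was lost if vehicle replicate 1 or 2, ADM2 replicate 1 or 2 or IL-25 replicate 2 was left out (adjusted p up to 0.151). The IL-25 call was lost if any of 6 of the 11 libraries (every one except vehicle replicate 3, ADM2 replicate 3, IL-25 replicate 3 and IL-25 plus ADM2 replicate 2 and 3) was left out (adjusted p up to 0.166). The call with both agents was lost if IL-25 plus ADM2 replicate 3 was left out (adjusted p up to 0.0570). Eef1aknmt (chr1:162533671-162548541), the gene of a methyltransferase of eEF1A formerly named Mettl13, stood at 53.8, 48.1 and 58.9 CPM in the vehicle libraries, 33.2, 32.8 and 31.9 with ADM2, 85.7, 84.8 and 84.2 with IL-25, and 45.9 and 43.0 with IL-25 plus ADM2. The 4 groups did not overlap, and the ADM2 and IL-25 libraries were tightly spaced. It rose 1.58-fold with IL-25 (log2 fold change 0.66 ± 0.10, SE; edgeR adjusted p = 0.000190) and fell 1.64-fold with ADM2 alone (log2 fold change −0.72 ± 0.10, SE; edgeR adjusted p = 0.000147) and 1.91-fold on top of IL-25 (log2 fold change −0.93 ± 0.11, SE; edgeR adjusted p = 6.18e-05). All 3 calls held whichever library was left out.

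Eef2kmt, the methyltransferase gene of eEF2, stood at 18.8, 25.3 and 20.9 CPM in the vehicle libraries, 11.5, 11.9 and 14.2 with ADM2, 18.2, 21.0 and 27.0 with IL-25, and 16.2 and 17.0 with IL-25 plus ADM2. ADM2 libraries were lowest and did not overlap vehicle, while IL-25 overlapped it. Eef2kmt fell 1.73-fold with ADM2 (log2 fold change −0.79 ± 0.17, SE; edgeR adjusted p = 0.00447), a call that held whichever library was left out, and was not called with IL-25 (0.027 ± 0.17). It overlaps Alg1 in the annotation. Eef1akmt1 and Eef1akmt2, further eEF1A methyltransferase genes, were near 10.8 and 7.63 CPM in vehicle and were not called.

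Among genes that carry the name with another main role, Eef1e1 had the highest fold change of all members with IL-25. Eef1e1 (AIMP3, chr13:38645691-38659028) belongs to the aminoacyl-tRNA synthetase complex, and stood at 35.8, 45.6 and 38.0 CPM in the vehicle libraries, 34.0, 31.9 and 28.1 with ADM2, 149, 124 and 144 with IL-25, and 87.6 and 105 with IL-25 plus ADM2. Both IL-25 groups were far above the others, and the combined libraries were below those of IL-25 alone. It rose 3.49-fold with IL-25, from 39.8 ± 5.16 to 139 ± 13.3 CPM (log2 fold change 1.80 ± 0.13, SE; edgeR adjusted p = 2.07e-07), and 2.42-fold with both agents (log2 fold change 1.27 ± 0.14, SE; edgeR adjusted p = 9.32e-06). It fell when ADM2 was added to IL-25 (log2 fold change −0.53 ± 0.14, SE; edgeR adjusted p = 0.0168). The fall was lost if IL-25 replicate 3 or IL-25 plus ADM2 replicate 2 was left out (adjusted p up to 0.185). Eif4a3, a core component of the exon junction complex, stood at 180.3, 189.8 and 169.8 CPM in the vehicle libraries, 209.9, 194 and 205 with ADM2, 232, 231 and 248 with IL-25, and 239 and 269 with IL-25 plus ADM2. The order vehicle, ADM2, IL-25 held without overlap, and the combined libraries overlapped IL-25. Eif4a3 rose with IL-25 (log2 fold change 0.40 ± 0.087, SE; edgeR adjusted p = 0.00386) and with both agents (log2 fold change 0.50 ± 0.10, SE; edgeR adjusted p = 0.00188). Eif1ad was not called in any comparison.

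Whether ADM2 acted differently with and without IL-25 was tested directly, and no member was called for this difference, beside 0.0333% of all genes (5 of 15028; 0.0133% higher, 0.0200% lower). DESeq2 and limma voom also called 0 members. The smallest p-values belonged to Eif4e (difference −0.53 ± 0.17, edgeR adjusted p = 0.587), Eif3c (−0.37 ± 0.12, edgeR adjusted p = 0.598) and Eif2s3x (−0.49 ± 0.17, edgeR adjusted p = 0.619). In each the log2 value of ADM2 was near 0 without IL-25 and negative with it: 0.069 and −0.46 for Eif4e, 0.034 and −0.33 for Eif3c, 0.0058 and −0.48 for Eif2s3x. A member that was called with ADM2 in only 1 of the backgrounds is not shown to differ between them. The median difference was −0.14 over members, −0.024 over all genes and −0.080 over genes of at least 50 CPM.

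In all, 14 tested members were called in no comparison: Eef1akmt1, Eef1akmt2, Eif1ad, Eif1b, Eif2b2, Eif2b4, Eif3f, Eif3j2, Eif3k, Eif4ebp3, Eif4enif1, Eif4g3, Eif4h and Eif5a2. They include abundant genes such as Eif4h (502 ± 39.0 CPM in vehicle) and Eif3f (387 ± 19.3 CPM) as well as rare ones such as Eif5a2 (6.997 ± 1.24 CPM), for which these libraries detect only larger changes.

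Genes that regulate the factors or work beside them were read from a list of 61, all tested. With ADM2 8 were called higher and 11 lower, with IL-25 17 higher and 5 lower, with ADM2 on top of IL-25 3 higher and 9 lower, and with both against vehicle 9 higher and 4 lower. These are 31.1%, 36.1%, 19.7% and 21.3% of the list, beside 14.8%, 23.3%, 14.6% and 20.2% of all genes, so the last is near the share of all genes. The IL-25 count of 22 was 12 without vehicle replicate 1, 13 without vehicle replicate 3 and 14 without IL-25 replicate 3. For ADM2 on top of IL-25 the count of 12 was 6 without replicate 2 of the combined group, and for both agents the count of 13 was 7 without its replicate 3. With library sizes alone the calls were 5 higher and 16 lower for ADM2, 8 and 8 for IL-25, 3 and 10 for ADM2 on top of IL-25, and 4 and 17 for both agents. Mknk2, a kinase gene of eIF4E phosphorylation, stood at 330.0, 283 and 283 CPM in the vehicle libraries, 564, 594 and 578 with ADM2, 225, 257 and 241 with IL-25, and 402 and 374 with IL-25 plus ADM2. ADM2 libraries were above and IL-25 libraries below all vehicle libraries, and combined libraries lay between ADM2 and vehicle. It rose with ADM2 (log2 fold change 0.95 ± 0.090, SE; edgeR adjusted p = 3.47e-06) and fell with IL-25 (log2 fold change −0.31 ± 0.090, SE; edgeR adjusted p = 0.0202). The fall with IL-25 was lost if vehicle replicate 1 or IL-25 replicate 1 or 3 was left out (adjusted p up to 0.0666). Ppp1r15a (GADD34), which guides a phosphatase to eIF2 alpha, rose with ADM2 from 197 ± 10.6 to 390.0 ± 23.9 CPM (log2 fold change 0.99 ± 0.12, SE; edgeR adjusted p = 4.94e-05) and was also higher with IL-25 (log2 fold change 0.54 ± 0.12, SE; edgeR adjusted p = 0.00466). Impact, an inhibitor of the eIF2 kinase GCN2, rose with ADM2 (log2 fold change 0.52 ± 0.12, SE; edgeR adjusted p = 0.00573), a call lost without vehicle replicate 1 (adjusted p = 0.0561). Ddx3x, an RNA helicase gene of initiation, rose with ADM2 (log2 fold change 0.42 ± 0.093, SE; edgeR adjusted p = 0.00516) and with IL-25 (log2 fold change 0.78 ± 0.093, SE; edgeR adjusted p = 2.66e-05).

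The products of the 7 diphthamide genes build or aid in building the modified histidine of eEF2. With ADM2 3 of the 7 were called lower and none higher, beside 7.43% of all genes lower. With IL-25 3 were higher and none lower, beside 13.0% of all genes higher. ADM2 on top of IL-25 gave 2 lower, beside 8.10%, and both agents against vehicle 1 lower, beside 9.64%. Dph1 stood at 26.1, 25.2 and 28.6 CPM in the vehicle libraries, 9.60, 9.13 and 7.10 with ADM2, 36.7, 36.4 and 43.3 with IL-25, and 19.8 and 12.4 with IL-25 plus ADM2. ADM2 libraries were below all vehicle libraries, and combined libraries below all IL-25 libraries. Dph1 fell 3.09-fold with ADM2 (log2 fold change −1.63 ± 0.17, SE; edgeR adjusted p = 1.13e-05) and rose with IL-25 (log2 fold change 0.54 ± 0.17, SE; edgeR adjusted p = 0.0278). Its rise was not called if any vehicle library or IL-25 replicate 3 was left out (adjusted p up to 0.114). Dph6 fell with ADM2 from 13.0 ± 0.524 to 6.52 ± 0.761 CPM (log2 fold change −0.99 ± 0.17, SE; edgeR adjusted p = 0.000988). Akt1s1 (PRAS40), an mTORC1 inhibitor gene, fell with ADM2 (log2 fold change −0.74 ± 0.10, SE; edgeR adjusted p = 0.000111), and Pabpc4, a poly(A)-binding protein gene, fell with ADM2 (log2 fold change −0.43 ± 0.082, SE; edgeR adjusted p = 0.00211) and rose with IL-25 (log2 fold change 0.78 ± 0.083, SE; edgeR adjusted p = 8.69e-06).

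Pdcd4, whose product inhibits eIF4A, stood at 75.6, 85.9 and 74.2 CPM in the vehicle libraries, 83.0, 79.6 and 85.3 with ADM2, 35.8, 33.3 and 33.6 with IL-25, and 50.6 and 43.3 with IL-25 plus ADM2. IL-25 libraries were below all vehicle and ADM2 libraries, opposite to Eif4a1. It fell 2.29-fold with IL-25 (log2 fold change −1.20 ± 0.10, SE; edgeR adjusted p = 1.28e-06). The termination factor gene Etf1 rose with IL-25 from 243 ± 14.4 to 439 ± 17.8 CPM (log2 fold change 0.85 ± 0.081, SE; edgeR adjusted p = 3.55e-06), and the recycling factor gene Abce1 from 241 ± 12.2 to 408 ± 38.6 CPM (log2 fold change 0.76 ± 0.091, SE; edgeR adjusted p = 2.79e-05). Eif2ak2, the gene of the RNA-activated eIF2 kinase PKR, fell with IL-25 (log2 fold change −0.71 ± 0.20, SE; edgeR adjusted p = 0.0198), with 45.0, 39.8 and 57.8 CPM in vehicle and 20.8, 41.0 and 25.2 with IL-25, so that IL-25 replicate 2 lay within the vehicle range. Gtpbp2, a ribosome rescue gene, fell with IL-25 (log2 fold change −0.40 ± 0.13, SE; edgeR adjusted p = 0.0333). The call of Eif2ak2 was lost if vehicle replicate 3 or IL-25 replicate 1 or 3 was left out (adjusted p up to 0.0853), and that of Gtpbp2 if vehicle replicate 1 or 3 or IL-25 replicate 1 or 2 was (adjusted p up to 0.119). The other calls named for these genes held whichever library was left out.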

How the data were processed

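Gene counts of 11 bulk RNA-seq libraries were used as deposited by the authors. Paired reads of 150 bases came from a HiSeq instrument, per the labels' protocols. The submitters' processing notes name featureCounts, limma and the mm10 build, and the aligner, gene annotation and strand setting were not given in the sources used here. Without a known strand setting, reads of overlapping genes (28 of 64 members overlap another annotated gene) and of near-identical copies such as those of Eef1a1, Eif4a1, Eif5a and Eif1 cannot be told apart with certainty.

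Gene IDs were matched to RefSeq GRCm38.p6 (25275 matched, 1904 did not), which gave the coordinates, symbols and promoters. Levels are CPM from library sizes scaled by TMM factors, and levels per kilobase divide by the union exon length. Genes were filtered with filterByExpr (minimum count 10), leaving 15028, and tested with edgeR 4.0.16 in R 4.3.3 by the quasi-likelihood F test with all 4 groups in 1 fit, for 5 contrasts. Standard errors are approximate, taken as the size of the log2 fold change over the square root of F. Adjusted p-values run over all genes tested. The script was tested on simulated data. Alternatives used DESeq2 1.42.0, limma 3.58.1 voom, other scalings and filters, and fits without each library. The counts used held 11 libraries, all of them analysed, and none was a replicate 1 of the group with both agents.

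Members and gene lists were chosen with earlier results of these data known. Members with full values are the up to 8 called in each direction with the smallest p in each comparison, and 11 named whatever their result (Eif4a1, Eif4e, Eif4g1, Eif4ebp1, Eif2s1, Eif2b3, Eif5a, Eif6, Eef1a1, Eef2 and Eef2k). Of the genes beside the factors, the 4 with the smallest p in each direction with ADM2 and with IL-25 are named. Eif3f, further paralogs and complex partners and the promoters shown were added after their values were seen.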

Additional observations from a re-analysis of the deposited data

How the results depend on the processing

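Counts of members called were within 1.5 times the reported ones under DESeq2, limma voom, scaling by median ratios or upper quartiles, no filter and a minimum count of 30 in all 5 comparisons. For ADM2 versus vehicle (12 reported) library sizes alone gave 21 and the replicate block 6. For IL-25 versus vehicle (44) library sizes alone gave 25, of which 80% were higher beside 90.9% in the reported fit. For ADM2 on top of IL-25 (17) the replicate block gave 10 and a fit of only the groups compared gave 9. For both agents versus vehicle (17) library sizes alone gave 17, of which 35.3% were higher beside 88.2%. The cause of these changes was not tested, except that a fit of fewer groups holds fewer libraries. Leaving out 1 library at a time gave 6 to 13 calls for ADM2, 28 to 43 for IL-25, 6 to 17 for ADM2 on top of IL-25, 8 to 25 for both agents, and 0 for the ADM2 effect compared between backgrounds. Calls that held without each library were 5 of 12, 25 of 44, 4 of 17 and 7 of 17. Calls that held under every setting that kept all libraries, the block included, were 6 of 12, 21 of 44, 8 of 17 and 8 of 17. The block ended 6 of the calls for ADM2, 8 for IL-25, 7 for ADM2 on top of IL-25 and 2 for both agents. No pairing by replicate number was seen. Over 15 same-numbered pairs the correlation of deviations ran from −0.0726 to 0.0685, and 1 of 11 libraries was closest to its own number. These deviations were taken from the means of small groups, so those within a group are tied to each other. They cannot settle whether same-numbered samples shared a source, which the labels do not state. With the block the counts were 6, 36, 10, 15 and 0.

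Signs reversed for values near 0 that were not called. Eif4a1 with ADM2 was −0.12 with library sizes alone and −0.088 to 0.073 on leaving out 1 library. Eif4e with ADM2 was −0.060 and −0.017 to 0.093. Eef1a1 with ADM2 on top of IL-25 was −0.0066 and −0.11 to 0.16, and Eef2 there ran from −0.00080 to 0.12 on leaving out 1 library. Over 78 pairs of a named member and a comparison under 20 settings, 1390 values kept direction and side of the threshold, 156 lost the call, 3 gained it and 11 reversed. The group with both agents holds 2 libraries, so a fit without either leaves 1, which is assumed to vary like the others. The same settings were added for the 61 genes beside the factors after seeing the data, and a fit of only the groups compared called 6 of them for ADM2 on top of IL-25, beside 12 reported. Genes with few counts, such as Eif5a2 and Eif3j2, could show only larger changes.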
